A study of Mus musculus with 30 samples.

Results

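The genes described here encode the receptors for the colony-stimulating factors and the ligands of the macrophage receptor, 7 genes in all, taken from the platform annotation by gene symbol. They are Csf1r, Csf2ra, Csf2rb, Csf2rb2, Csf3r, Csf1 and Il34. The annotation named 6 of the 7, each by 1 transcript cluster (the probe set that sums up a gene on the array), among 22103 clusters and 19479 genes with a single symbol. Csf2rb2 was named by no cluster and is not analysed here. Expression was measured on Affymetrix Clariom arrays in 30 samples of myeloid cells from the ischemic hemisphere of male C57BL/6 mice aged 8 to 10 weeks. All mice, TREM1+/+ (wild type, WT) or TREM1-/- (knockout, KO), had the middle cerebral artery occluded for 45 min, and cells were sorted 48 h after reperfusion, so no uninjured brain is in the comparison. TREM1 is a myeloid receptor that amplifies inflammatory signalling, and the labels state neither how the allele was made nor whether mice were pooled for an array. Neutrophils were gated as CD45Hi, CD11b+, Ly6G+ cells (4 WT and 5 KO arrays), macrophages as CD45Hi, CD11b+, Ly6G- cells (3 WT and 6 KO) and microglia as CD45Lo, CD11b+ cells (6 WT and 6 KO), a gate the labels also write as Ly6G+. The labels call the arrays biological replicates.

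CSF1R is the receptor tyrosine kinase that keeps microglia and most macrophages alive, and it binds CSF1 (M-CSF) and interleukin 34, which in the brain comes largely from neurons. CSF3R binds G-CSF and drives the production, release and survival of neutrophils. CSF2RA binds GM-CSF and signals only with the common beta chain CSF2RB, which IL-3 and IL-5 receptors share; the mouse has a close copy of that chain, CSF2RB2, that serves IL-3 alone.

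DNA before a RefSeq start site of the members whose levels differed most between cell types, Csf3r and Csf1, is shown with that of Csf2ra. Stretches for 4 of the 7 genes were taken from RefSeq's promoter table (GRCm38.p6). Csf1r was left out by rule, so this count does not show how many of the genes that table held. Each line below gives 250 bases that end at the base before the table's start site, 5′ to 3′ on the gene's strand. For Csf3r that site lies inside the RefSeq gene span (126023441 to 126044975), so its stretch is within the gene. The Csf2ra stretch crosses the end of its gene span, 61228461, and its marked cores lie inside the gene. Capitals mark GAGGAA, the core bound by the myeloid factor PU.1, or TTGCG, a core of C/EBP sites, on either strand (reverse TTCCTC and CGCAA); the motifs do not overlap each other here. The letters were chosen with the levels known.
Csf3r, chr4:126024409-126024658, plus strand: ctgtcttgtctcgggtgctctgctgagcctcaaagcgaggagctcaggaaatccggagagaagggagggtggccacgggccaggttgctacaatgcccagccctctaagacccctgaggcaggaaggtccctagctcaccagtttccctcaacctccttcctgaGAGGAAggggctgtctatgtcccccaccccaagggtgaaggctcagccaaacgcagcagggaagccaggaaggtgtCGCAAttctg
Csf1, chr3:107760470-107760719, minus strand: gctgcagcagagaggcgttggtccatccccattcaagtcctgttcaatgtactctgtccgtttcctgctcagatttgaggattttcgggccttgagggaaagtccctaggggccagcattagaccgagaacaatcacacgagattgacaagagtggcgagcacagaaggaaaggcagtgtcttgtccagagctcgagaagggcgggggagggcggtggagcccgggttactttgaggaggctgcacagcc
Csf2ra, chr19:61228419-61228668, minus strand: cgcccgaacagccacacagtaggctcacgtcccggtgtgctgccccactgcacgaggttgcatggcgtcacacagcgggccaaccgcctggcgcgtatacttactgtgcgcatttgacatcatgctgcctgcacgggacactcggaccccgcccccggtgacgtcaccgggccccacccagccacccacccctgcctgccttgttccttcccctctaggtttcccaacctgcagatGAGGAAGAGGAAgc
The Csf3r stretch held 1 PU.1 core, beginning 86 bases before the start site, and 1 C/EBP core, beginning 10 bases before it. The Csf2ra stretch held 2 PU.1 cores, beginning 14 and 8 bases before the start, and no C/EBP core. The Csf1 stretch held neither. Over 32851 RefSeq stretches of this length, 23.3% held the PU.1 core and 14.5% the C/EBP core, so a match in a single gene is common.

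Values are log2 of the deposited intensities, and each gene is compared with itself across groups, since levels of different probe sets are on different scales. The highest intensity in the table was 438297, above the 65535 that a 16-bit scanner can record, so the size of a fold depends on a scaling that is not given in the sources used here. Median intensity per array was 83.7 to 120. It was 83.7 to 91.1 on macrophage arrays, 89.3 to 108 on neutrophil arrays and 107 to 120 on microglia arrays, with neighbouring ranges overlapping. Sorted labels matched their marker genes: 13 measured neutrophil markers averaged 12.67 to 16.17 on neutrophil arrays and 5.97 to 8.96 on the others, 12 macrophage and monocyte markers averaged 14.80 to 15.25 on macrophage arrays, and 11 microglia markers averaged 14.09 to 15.20 on microglia arrays. Microglia markers averaged 9.96 to 11.70 on neutrophil arrays and 9.04 to 10.30 on macrophage arrays, though 2 of the 11 were higher in WT neutrophils than in WT microglia. Whether this signal came from other cells in the sorts was not tested. KO microglia 2 and 4 had neutrophil marker means of 8.96 and 7.24, against 5.97 to 6.55 in the other microglia arrays. On WT macrophage 1 the mean of 9 lymphocyte (T, NK and B cell) markers was 6.01, against 4.78 to 4.91 on the other macrophage arrays. The WT neutrophil arrays also read broadly expressed genes lower: the median of 2015 clusters, at 11 or more on every macrophage and microglia array with WT means within 1 of each other, was 12.42 to 12.91 in WT neutrophils and 12.85 to 13.21 in KO neutrophils. WT neutrophil 4 stood apart: 204 of the 2015 clusters lay more than 3 below their mean in the other cell types (20, 89 and 109 in the other WT and 5 to 24 in the KO neutrophil arrays), and its mean correlation with its group was 0.933, the lowest of the 30 arrays. Trem1 itself lay at 16.82 to 17.51 in WT and 15.12 to 16.39 in KO neutrophils, at 13.59 to 14.19 and 12.81 to 14.39 in macrophages, and at 7.62 to 10.44 and 7.50 to 9.21 in microglia; without knowing where the allele is deleted, this is no check of the genotype. In sorted pools a change in the share of cells that express a gene and a change in the RNA per cell cannot be told apart.

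**Figure D1:**
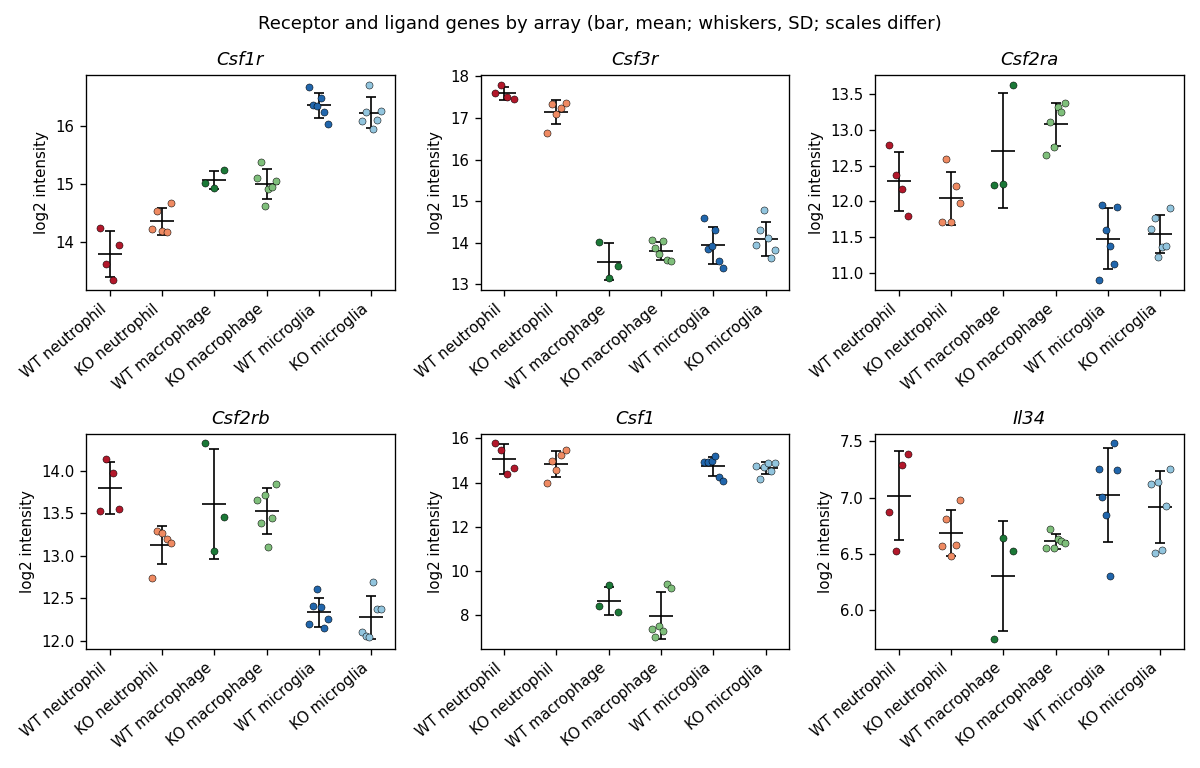
Log2 intensity of the 6 measured genes on each array (vertical axes, scaled per gene), by genotype and cell type (horizontal axes); points are arrays, bars the group means and whiskers the SD. Csf1r steps down from microglia to macrophages to neutrophils. Csf3r is higher on every neutrophil array than on any other array of this set, and Csf1 stands low on all 9 macrophage arrays.

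Csf1r, the receptor for CSF1 and IL-34 (GRCm38.p6 chromosome 18, 61105572 to 61131139), was highest in microglia, intermediate in macrophages and lowest in neutrophils. In WT microglia it ran from 16.03 through a median of 16.34 to 16.66, and in KO microglia from 15.94 through 16.17 to 16.71. The 3 WT macrophage arrays were at 15.01, 14.93 and 15.23, and the 6 KO macrophage arrays ran from 14.61 through 15.00 to 15.38. No macrophage array reached a microglia array. The WT neutrophil arrays were at 14.24, 13.61, 13.33 and 13.95, and the KO neutrophil arrays at 14.21, 14.54, 14.19, 14.17 and 14.67.

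WT microglia exceeded WT neutrophils 5.93-fold in Csf1r (log2 difference of neutrophils minus microglia -2.57, SE 0.17, limma adjusted p = 5.34e-13) and exceeded WT macrophages 2.45-fold (macrophages minus microglia -1.29, SE 0.19, adjusted p = 3.66e-06). WT neutrophils in turn lay below WT macrophages by -1.27 (SE 0.21, adjusted p = 1.28e-05), and no range overlapped in these 3 comparisons. In KO cells the order was the same, with neutrophils minus macrophages at -0.64 (SE 0.16, adjusted p = 0.00351) and ranges that overlapped at 14.61 to 14.67. That KO call missed the threshold after quantile normalization over all arrays (-0.47, adjusted p = 0.0519). Csf1r signal on neutrophil arrays, a cell not usually counted among CSF1R bearers, came with the microglia marker means of 9.96 to 11.70 given above and with macrophage and monocyte marker means of 11.40 to 12.78. The part of other cells in it was not tested. The RefSeq annotation also lists a pseudogene, Csf1r-ps, on chromosome 19, and whether the array's probes separate it from Csf1r is not known here.

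Csf3r, the G-CSF receptor (chromosome 4, 126023441 to 126044975), marked neutrophils. WT neutrophil arrays were at 17.59, 17.80, 17.51 and 17.46 and KO neutrophil arrays at 16.65, 17.35, 17.10, 17.24 and 17.37. WT macrophages were at 14.02, 13.15 and 13.45, and KO macrophages ran from 13.57 through 13.80 to 14.06. WT microglia ran from 13.39 through 13.88 to 14.59 and KO microglia from 13.63 through 14.03 to 14.79. Every neutrophil array lay above every macrophage and microglia array.

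WT neutrophils exceeded WT macrophages 16.6-fold in Csf3r (log2 4.05, SE 0.26, adjusted p = 8.86e-13) and WT microglia 12.6-fold (3.66, SE 0.22, adjusted p = 3.99e-14). In KO cells these were 3.33 (SE 0.21, adjusted p = 3.89e-13) and 3.04 (SE 0.21, adjusted p = 7.52e-13). Macrophages and microglia stood next to each other in the order and did not differ beyond their spread (WT macrophages minus microglia -0.39, SE 0.24, adjusted p = 0.208), a value that turned to 0.01 when each array was centred on its median. The KO microglia arrays with raised neutrophil markers, 2 and 4, had Csf3r at 14.30 and 14.10, inside the range of the other KO microglia, and without them KO microglia minus WT microglia was 0.11 in place of 0.16.

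The GM-CSF receptor chains gave another pattern, with microglia lowest. Csf2rb, the common beta chain (chromosome 15, 78325800 to 78351001), was at 13.53, 14.14, 13.97 and 13.55 in WT neutrophils and at 14.32, 13.05 and 13.45 in WT macrophages. WT microglia ran from 12.15 through 12.32 to 12.60, below all of these. KO microglia ran from 12.04 through 12.24 to 12.70, and KO macrophages from 13.11 through 13.55 to 13.84. KO neutrophils, at 12.74, 13.28, 13.26, 13.20 and 13.15, also lay above every microglia array. Csf2rb was 2.76-fold higher in WT neutrophils than in WT microglia (1.46, SE 0.20, adjusted p = 2.49e-07) and 2.42-fold higher in WT macrophages than in WT microglia (1.28, SE 0.21, adjusted p = 2.26e-05). WT neutrophils and macrophages did not differ beyond their spread (0.19, SE 0.23, adjusted p = 0.508). Without WT macrophage 1, at 14.32 and with the raised lymphocyte markers given above, neutrophils were higher (0.54, adjusted p = 0.0484). With centring the sign turned (-0.07). KO neutrophils minus KO macrophages was -0.40 (SE 0.18, adjusted p = 0.0983) and passed with centring (-0.49, adjusted p = 0.0439) or array weights (-0.41, 0.0408). The unmeasured copy Csf2rb2 lies beside Csf2rb on chromosome 15 (78282507 to 78305721), and RNA from it could add to the Csf2rb signal.

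Csf2ra, the GM-CSF binding chain (chromosome 19, 61217191 to 61228461), was at 12.23, 12.25 and 13.63 in WT macrophages and ran from 12.65 through 13.18 to 13.37 in KO macrophages. The WT macrophage arrays were thus uneven, with a single array, WT macrophage 3, above the KO range and the others below it. Neutrophils were at 12.79, 12.37, 12.17 and 11.80 in WT and at 11.71, 12.59, 11.71, 12.21 and 11.97 in KO. Microglia ran from 10.89 through 11.49 to 11.95 in WT and from 11.21 through 11.49 to 11.91 in KO. WT macrophages exceeded WT microglia by 1.23 (2.34-fold, SE 0.28, adjusted p = 0.001), which was 0.76 (adjusted p = 0.0387) without WT macrophage 3. WT neutrophils exceeded WT microglia by 0.80 (1.75-fold, SE 0.26, adjusted p = 0.00948) with overlapping ranges. The neutrophil call missed the threshold without WT neutrophil 1 (0.64, adjusted p = 0.053). WT neutrophils and macrophages did not differ beyond their spread (-0.42, SE 0.30, adjusted p = 0.249), and the difference was 0.04 without WT macrophage 3. KO neutrophils lay below KO macrophages by -1.04 (SE 0.24, adjusted p = 0.0015) with no overlap. KO neutrophils minus KO microglia was 0.50 (SE 0.24, adjusted p = 0.0927), which passed with quantile normalization (0.83, adjusted p = 0.00491), with centring (0.77, 0.0136) and with only those groups fitted (0.50, 0.0433).

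Of the ligands, Csf1 (chromosome 3, 107741048 to 107760469) showed the widest spread between cell types of the 6 genes. It was bright in neutrophils, at 15.78, 15.47, 14.37 and 14.66 in WT and 13.97, 14.99, 14.58, 15.26 and 15.46 in KO. It was also bright in microglia, from 14.08 through 14.92 to 15.21 in WT and from 14.18 through 14.72 to 14.88 in KO. In macrophages it was dim, at 8.41, 9.35 and 8.14 in WT and from 6.99 through 7.45 to 9.40 in KO. The highest macrophage array, at 9.40, was thus far under the lowest of the other arrays, at 13.97.

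Csf1 in WT macrophages lay 68.4-fold below WT microglia (-6.10, SE 0.44, adjusted p = 3.13e-12) and 86.5-fold below WT neutrophils (neutrophils minus macrophages 6.43, SE 0.47, adjusted p = 1.39e-11). In KO cells the differences were -6.68 (SE 0.36, adjusted p = 2.39e-15) and 6.89 (SE 0.37, adjusted p = 1.56e-14). The macrophage means, 8.63 in WT and 7.97 in KO, were not far above 6.69, the median of all clusters, where a fold is least certain. Neutrophils and microglia, neighbours at the top, did not differ beyond their spread (WT 0.34, SE 0.40, adjusted p = 0.49; KO 0.20, SE 0.37, adjusted p = 0.696). Macrophages thus carried Csf1r at 14.61 or more on every array with little Csf1 signal, while microglia carried both. Neutrophil arrays also carried both, with Csf1r lower than in microglia, at 13.33 to 14.67.

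**Figure D2:**
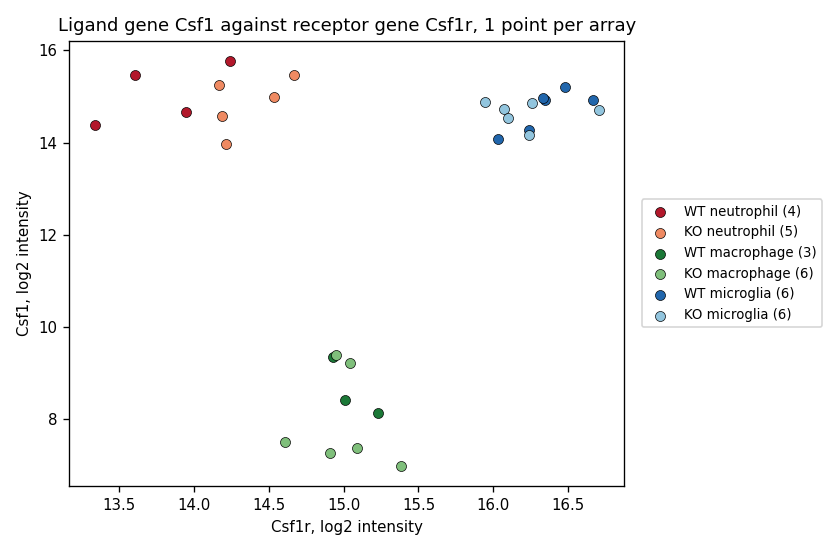
Log2 intensity of the ligand gene Csf1 (vertical axis) against the receptor gene Csf1r (horizontal axis), 1 point per array, coloured by group with the number of arrays in brackets. The 9 macrophage arrays sit at 6.99 to 9.40 in Csf1, while the neutrophil and microglia arrays, at opposite ends of the Csf1r axis, sit at 13.97 to 15.78.

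Il34, the other ligand of CSF1R (chromosome 8, 110741829 to 110805949), was near the median of all clusters in every group and was not shown to be above background. Its values were 6.87, 6.52, 7.29 and 7.39 in WT neutrophils, 6.57, 6.81, 6.48, 6.58 and 6.98 in KO neutrophils, and 5.74, 6.64 and 6.53 in WT macrophages. KO macrophages ran from 6.55 through 6.61 to 6.72, WT microglia from 6.31 through 7.13 to 7.48 and KO microglia from 6.51 through 7.02 to 7.26. Neuronal genes were also dim, with 8 markers averaging 4.58 to 5.64 per array. The fit put WT macrophages below WT microglia (-0.72, SE 0.23, adjusted p = 0.0141) and below WT neutrophils (neutrophils minus macrophages 0.71, SE 0.25, adjusted p = 0.0175). Both calls rested on WT macrophage 1, the array with raised lymphocyte markers: without it they were -0.44 (adjusted p = 0.186) and 0.43 (adjusted p = 0.181). Each also missed the threshold with quantile normalization (-0.29, adjusted p = 0.356, and 0.58, adjusted p = 0.0538) and with centring on the median (-0.31, adjusted p = 0.281, and 0.45, adjusted p = 0.113). In KO cells no pair of cell types passed for Il34, though macrophages minus microglia did without KO microglia 2 and 4 (-0.50, adjusted p = 0.0469).

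Counted together, 4 of the 6 measured genes passed between WT neutrophils and WT microglia (54.3% of all clusters did, 22% higher and 32.3% lower), 5 of 6 between WT macrophages and WT microglia (37.5%) and 4 of 6 between WT neutrophils and WT macrophages (51.6%). In KO cells the numbers were 3 of 6 (45% of all clusters), 4 of 6 (43.3%) and 4 of 6 (31.7%). Groups did not overlap for 3, 4 and 3 of the 6 genes in the WT comparisons, in the same order, against 35.8%, 33.7% and 45.4% of all clusters, and for 3, 4 and 3 in the KO comparisons, against 29.3%, 25% and 21.3%. Passing is common between these cell types, so the counts describe the genes and do not set them apart. The median difference of the 6 genes was 0.57, -0.56 and 0.45 in the 3 WT comparisons, against -0.06, -0.25 and 0.17 over all clusters.

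**Figure D3:**
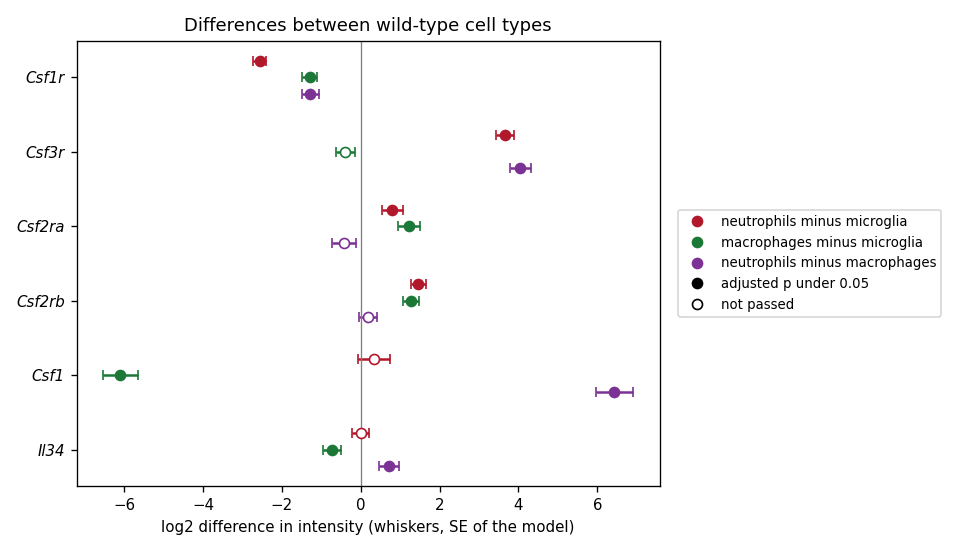
Log2 differences between WT cell types for the 6 genes (rows), with the SE of the model as whiskers; filled points passed at an adjusted p under 0.05 and open points did not. Csf1 lies at -6.10 for macrophages minus microglia and 6.43 for neutrophils minus macrophages, while Csf3r lies at 3.66 and 4.05 for neutrophils minus microglia and minus macrophages.

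The comparison of KO with WT cells asks whether loss of TREM1 changes these receptors after stroke. In neutrophils Csf1r rose and Csf2rb fell, each by less than 1 log2 unit, and the other 4 genes did not pass. Csf1r was 1.49-fold higher in KO neutrophils (0.57, SE 0.18, limma adjusted p = 0.0263), from 13.78 ± 0.40 (SD, n = 4) to 14.35 ± 0.23 (n = 5). All 5 KO arrays lay above the WT mean, but WT neutrophil 1, at 14.24, was inside the KO range. Csf2rb was 1.59-fold lower (-0.67, SE 0.20, limma adjusted p = 0.0199), from 13.80 ± 0.30 (SD, n = 4) to 13.13 ± 0.22 (n = 5), and no KO array, 13.28 at most, reached the lowest WT array at 13.53. In this comparison 19.9% of all clusters passed, 10.7% higher and 9.14% lower, against these 2 of 6 genes.

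Csf3r also lay lower in every KO than in every WT neutrophil array, without passing (-0.45, SE 0.23, adjusted p = 0.164). Groups of neutrophils that do not overlap occurred in 11.4% of all clusters, and in 2 of the 6 genes. The remaining differences in neutrophils were -0.24 for Csf2ra (SE 0.27, adjusted p = 0.543), -0.22 for Csf1 (SE 0.41, adjusted p = 0.739) and -0.33 for Il34 (SE 0.22, adjusted p = 0.28).

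**Figure D4:**
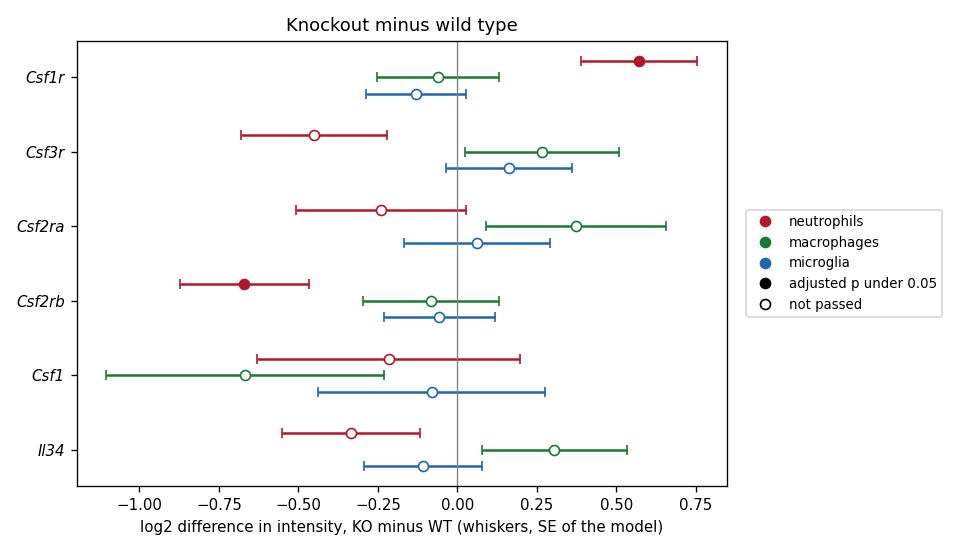
Log2 difference of KO minus WT for the 6 genes (rows) within each cell type, with the SE of the model as whiskers; filled points passed at an adjusted p under 0.05. The filled points are Csf1r at 0.57 and Csf2rb at -0.67, both in neutrophils.

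Both neutrophil calls depended on single arrays and on the arrays in the fit. The Csf1r call ended without WT neutrophil 2 (0.51, adjusted p = 0.0676), WT neutrophil 3 (0.42, 0.125), KO neutrophil 2 (0.53, 0.0572) or KO neutrophil 5 (0.49, 0.0573), and with quantile normalization (0.46, 0.113). The Csf2rb call ended without WT neutrophil 2 (-0.56, adjusted p = 0.0694), WT neutrophil 3 (-0.61, 0.0595) or KO neutrophil 1 (-0.57, 0.0672), and with each array centred on its median (-0.55, 0.0637). Neither passed when neutrophils alone were fitted (Csf1r 0.57, adjusted p = 0.13; Csf2rb -0.67, adjusted p = 0.0695), nor when WT neutrophil 4 was left out of that fit as well (0.63, 0.139; -0.75, 0.0616). With the median of the 2015 broadly expressed clusters as a covariate the differences were 0.71 (adjusted p = 0.545) and -0.67 (adjusted p = 0.521) on the neutrophil arrays, and 0.80 (0.0934) and -0.49 (0.48) on all arrays. Each kept its sign in all these settings.

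Marker genes of other cells also differed between KO and WT neutrophil arrays. Within WT neutrophils 1 to 4 the macrophage and monocyte marker means were 11.40, 12.39, 12.43 and 11.77, the reverse of their Csf1r order. The microglia marker means of the same arrays were 11.47, 10.42, 10.99 and 11.28. These were highest in WT neutrophil 1 and next in WT neutrophil 4, as Csf1r was, with WT neutrophils 2 and 3 in exchanged places. For both lists the KO arrays showed neither the same nor the reverse of the Csf1r order. Of 12 macrophage and monocyte markers 5 were higher and none lower in KO neutrophils (10.7% of all clusters were higher and 9.14% lower), with array means of 12.16 to 12.78 in KO and 11.40 to 12.43 in WT. Of 11 microglia markers none was higher and 3 were lower, with means of 9.96 to 11.70 and 10.42 to 11.47, and of 13 neutrophil markers 4 were lower and none higher. The neutrophil marker means were 13.50, 16.17, 14.31 and 13.73 in WT and 12.67, 13.57, 13.19, 13.85 and 13.54 in KO. WT neutrophil 2 thus stood above the rest, while WT neutrophils 1 and 4 lay inside the KO range. With neutrophils fitted alone these counts were 2 higher and 1 lower of the macrophage and monocyte markers, 0 of the microglia markers and 2 lower of the neutrophil markers. The part of other cells in the Csf1r and Csf2rb differences, or in the neutrophil genotype differences of the gene lists below, was not tested. Of 8 dendritic cell markers 1 was lower, as was 1 of 9 lymphocyte markers and 1 of 7 endothelial and mural markers, and none of 8 neuronal, 6 astrocyte or 5 oligodendrocyte markers passed.

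In macrophages and microglia none of the 6 genes passed for KO against WT. Over all clusters 1 passed in macrophages (0.00452%; 1029 had an unadjusted p under 0.05) and 0 in microglia by limma (646 had an unadjusted p under 0.05). In macrophages the differences ran from -0.67 for Csf1 (SE 0.44, adjusted p = 0.998) to 0.37 for Csf2ra (SE 0.28, adjusted p = 0.998), with Csf1r at -0.06 (SE 0.19). Single arrays moved both ends: Csf1 was -0.31 without WT macrophage 2, and Csf2ra was 0.84 without WT macrophage 3 and 0.14 without WT macrophage 1 or 2. In microglia they ran from -0.13 for Csf1r (SE 0.16, adjusted p = 1) to 0.16 for Csf3r (SE 0.20, adjusted p = 1), and the ranges of WT and KO overlapped for all 6 genes in both cell types (2.92% of all clusters did not overlap in macrophages and 0.109% in microglia).

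The change with genotype was not shown to differ between cell types for any of the 6 genes. For Csf1r the change in neutrophils minus that in microglia was 0.70 (SE 0.24, adjusted p = 0.0765) and minus that in macrophages 0.63 (SE 0.26, adjusted p = 0.134). For Csf2rb these were -0.61 (SE 0.27, adjusted p = 0.162) and -0.59 (SE 0.29, adjusted p = 0.211), and for Csf3r -0.61 (SE 0.30, adjusted p = 0.223) and -0.72 (SE 0.33, adjusted p = 0.178). Over all clusters 5.79% and 6.87% passed in these comparisons, and 0% passed for macrophages minus microglia by limma, where 761 had an unadjusted p under 0.05. The Csf1r difference from microglia passed with arrays centred on the median (0.83, adjusted p = 0.0314), without WT neutrophil 1 (0.85, 0.0202) and without KO microglia 3 (0.80, 0.0417). The difference from macrophages passed for Csf1r without WT neutrophil 1 (0.79, adjusted p = 0.0457) and for Csf2rb without WT macrophage 1 (-0.94, 0.0409).

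Genes around the receptors were taken from lists of related cytokines and receptors, signalling proteins, transcription factors and sheddases. All 10 related cytokines and receptors were measured, and between WT neutrophils and WT microglia 2 were higher and 3 lower, 5 of 10 where 54.3% of all clusters passed. Kit, the stem cell factor receptor and a relative of CSF1R, was at 10.82 ± 2.84 (SD, n = 4) in WT neutrophils and 5.42 ± 0.29 (n = 6) in WT microglia (5.40, SE 0.80, limma adjusted p = 1.34e-06), with a wide spread among the neutrophil arrays. Its ligand gene Kitl had the opposite order (-3.02, SE 0.41, adjusted p = 2.96e-07), and the cytokine gene Il5 was lower by -0.53 (adjusted p = 0.00502). With the covariate of broadly expressed clusters on all arrays, none of the 10 passed between these cell types. Its clusters were picked without the neutrophil arrays, and it was 12.42 to 12.91 on WT neutrophil and 13.26 to 13.49 on WT microglia arrays. It thus takes up part of the cell type difference. A call between these cell types that is lost with it, here or in the lists below, is no check of that difference. The Il5 call also ended with quantile normalization. In KO neutrophils 1 of the 10 rose and none fell, where 19.9% of all clusters passed: Il3ra, the IL-3 binding chain that pairs with the beta chains, went from 10.35 to 11.39 (1.04, SE 0.26, adjusted p = 0.00619). Kit (-1.96, SE 0.83, adjusted p = 0.0915), Flt3 (-0.52, SE 0.30, adjusted p = 0.217) and the G-CSF gene Csf3 (-0.29, SE 0.14, adjusted p = 0.135) did not pass. Il3ra missed the threshold with quantile normalization, with the covariate and with neutrophils fitted alone without WT neutrophil 4, and Kit passed as lower without WT neutrophil 1 or KO neutrophil 5. Csf3 was dim in all groups, at 4.21 to 4.61.

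Of 20 listed genes of CSF1R signalling 17 were measured, with 4 higher and 6 lower in WT neutrophils than in WT microglia, near the 54.3% of all clusters that passed. The median was 0.19 (-0.06 over all clusters) and turned to -0.17 without WT neutrophil 2. Fgr, a SRC family kinase of myeloid cells, was higher in neutrophils (5.96, SE 0.30, adjusted p = 7.6e-16). The phospholipase gene Plcg2 (-2.61, SE 0.28, adjusted p = 3.97e-09) and Pik3r1, the regulatory subunit of PI3 kinase (-1.70, SE 0.20, adjusted p = 2.6e-08), were lower. Between genotypes of neutrophils 2 of the 17 rose and 1 fell, near the 19.9% of all clusters that passed, with a median of 0.08 (-0.13 over all clusters). Cblb, a ubiquitin ligase that limits receptor signalling, rose from 10.34 to 11.89 (1.55, SE 0.26, adjusted p = 0.000154), and Plcg2 rose by 1.09 (SE 0.29, adjusted p = 0.0087). The docking protein gene Gab2 fell by 0.75 (SE 0.25, adjusted p = 0.0332), while Dok1 was at 1.05 (SE 0.45, adjusted p = 0.0977). The Gab2 call ended with centring, with neutrophils fitted alone, with the covariate, and without WT neutrophil 4 or KO neutrophil 1, 2 or 3. With neutrophils fitted alone 1 of the 17 genes passed, Cblb, and none did when the covariate was added to that fit. Against microglia, quantile normalization and centring each gave 7 higher and 4 lower. The covariate on all arrays gave 5 higher and 3 lower there, with Fgr and Pik3r1 but not Plcg2 among them.

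Of 16 listed genes of JAK-STAT signalling, the route used by CSF3R and the GM-CSF receptor, 15 were measured. Between WT neutrophils and WT microglia 11 were higher and none lower, with a median of 1.01, while 22% of all clusters were higher and 32.3% lower (median -0.06). They included the kinase gene Pim1 (5.15, SE 0.33, adjusted p = 1.18e-13), the survival gene Mcl1 (2.08, SE 0.13, adjusted p = 1.77e-13) and Jak2, the kinase bound to these receptors (2.53, SE 0.20, adjusted p = 7.41e-12). With the covariate on all arrays 7 were higher and none lower, Pim1, Mcl1 and Jak2 among them. The lean was not particular to neutrophils. Between WT macrophages and WT microglia 8 of the 15 were higher and 1 lower, with a median of 0.64 (-0.25 over all clusters, of which 37.5% passed). Between genotypes of neutrophils 6 of the 15 fell and none rose, with a median of -0.51, while 9.14% of all clusters were lower and 10.7% higher (median -0.13). Mcl1 fell by 0.58 (SE 0.14, adjusted p = 0.0043), the phosphatase gene Ptpn6 by 0.61 (SE 0.19, adjusted p = 0.025) and Jak2 by 0.64 (SE 0.20, adjusted p = 0.027). Cish, a feedback inhibitor induced by STAT5, fell by 0.89 (SE 0.26, adjusted p = 0.0178), from 5.14 to 4.24, below the median of all clusters. The other 2 were the feedback inhibitors Socs1 and Socs3, also below that median and named after their values were seen. The count of falls depended on the fit. It was 6 with quantile normalization, but with Bcl2l1 and Stat5b in place of Socs1 and Socs3. It was 2 with centring, 0 with neutrophils fitted alone and 2 when WT neutrophil 4 was then left out. It was 1 with the covariate of broadly expressed clusters, and 2 to 6 with a single neutrophil array left out of the full fit. Its low end there came without KO neutrophil 1 or KO neutrophil 3, and it was 3 without WT neutrophil 3. No listed gene rose in any of these fits, and the median stayed between -0.56 and -0.40.

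Of 12 listed myeloid transcription factors 11 were measured, with 5 higher and 3 lower in WT neutrophils than in WT microglia (54.3% of all clusters passed) and a median of 0.34 (-0.06 over all clusters). Ets2 (4.34, SE 0.40, adjusted p = 2.92e-10) and Cebpd (2.69, SE 0.26, adjusted p = 6.22e-10) were higher, and Irf8, which directs monocytes and macrophages and restrains the neutrophil fate, was lower (-3.64, SE 0.29, adjusted p = 1.65e-11). With the covariate on all arrays 3 were higher and 1 lower, Ets2, Cebpd and Irf8 among them. In KO neutrophils 2 of the 11 rose and 2 fell (19.9% of all clusters passed), with a median of -0.41 (-0.13 over all clusters). Irf8 rose from 7.52 to 9.46 (1.95, SE 0.30, adjusted p = 5.46e-05) and Cebpa by 0.52 (SE 0.16, adjusted p = 0.0244). Cebpd fell by 0.93 (SE 0.27, adjusted p = 0.016), and Spi1, which encodes PU.1, fell by 0.51 (SE 0.17, adjusted p = 0.0329). With neutrophils fitted alone 1 gene of the list passed, Irf8, and with the covariate 0 did. Without KO neutrophil 1 Irf8 was again the sole gene to pass. The Spi1 call also ended with either scaling and without WT neutrophil 2, 3 or 4 or KO neutrophil 3 or 4, the Cebpd call without WT neutrophil 3, and the Cebpa call with quantile normalization and without WT neutrophil 2.

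All 4 listed genes of receptor shedding were measured, and between WT neutrophils and WT microglia 1 was higher and 2 lower (54.3% of all clusters passed). Adam17, the protease that releases the outer part of CSF1R, was lower in WT neutrophils (-1.36, SE 0.15, adjusted p = 6.78e-09), as was Adam10 (-1.17, SE 0.30, adjusted p = 0.00168), while its partner gene Rhbdf2 was higher (0.83, SE 0.29, adjusted p = 0.0185). The Rhbdf2 call ended without WT neutrophil 1, 2 or 3, and both it and the Adam10 call ended with the covariate. In KO neutrophils Adam17 rose by 0.67 (SE 0.15, adjusted p = 0.00315), and Adam10 (0.39), Rhbdf2 (0.06) and Timp3 (-0.04) did not pass. With neutrophils fitted alone, or with the covariate, 0 of the 4 passed. None of the genes of these 5 lists passed for KO against WT macrophages or microglia.

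**Figure D5:**
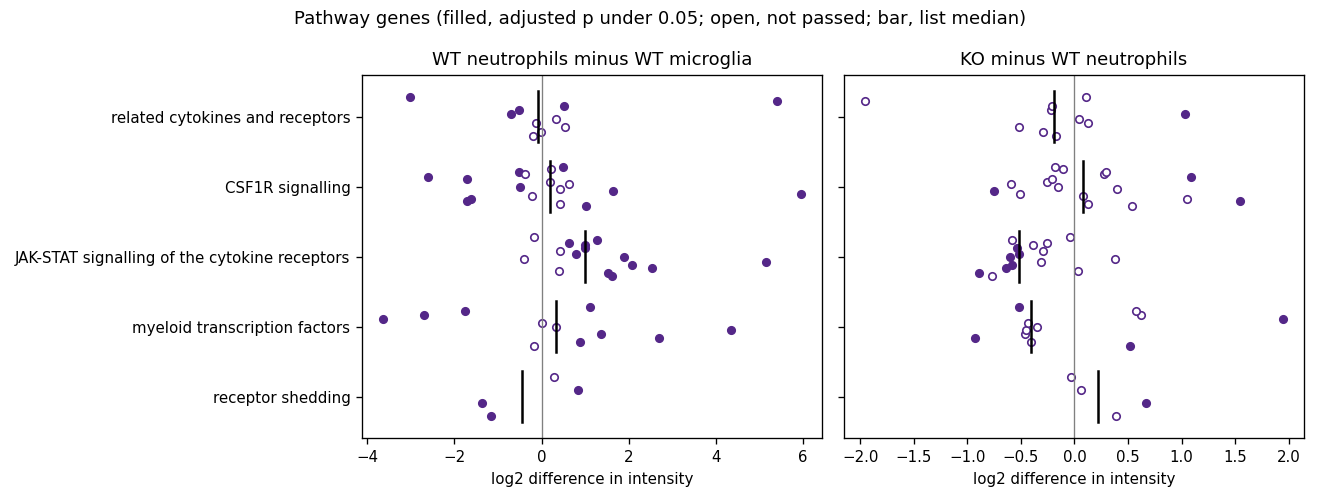
Log2 difference for each measured gene of the 5 lists (rows) between WT neutrophils and WT microglia (left) and between KO and WT neutrophils (right); filled points passed at an adjusted p under 0.05 and bars mark list medians. In the JAK-STAT row the median is 1.01 on the left and -0.51 on the right.

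The genes whose levels followed each member most closely were found by Pearson correlation over the 30 arrays among 11047 genes. This is a description, since the 6 groups set most of it. Csf1r was followed by Lair1, an inhibitory collagen receptor (r = 0.97), the transcription factor gene Mef2c (0.97) and Rasal3 (0.97). Csf3r was followed by Hdc, the enzyme that makes histamine (0.98), Mrgpra2b (0.98) and the protease gene Asprv1 (0.98). Csf2rb was followed by Myadm (0.93), the receptor kinase gene Grk5 (0.92) and Ifitm6 (0.92), and Csf2ra by Usb1 (0.88), the actin regulator gene Was (0.87) and the inhibitory lectin gene Clec12a (0.85). Csf1 was followed by the sialyltransferase gene St3gal6 (0.96), Pacsin3 (0.94) and Plek (0.93). The closest gene to Il34, Sgca, reached 0.80.
Among the members themselves, Csf1r and Csf2rb ran opposite ways over the 30 arrays (r = -0.81) and Csf2ra and Csf2rb the same way (0.67). After the group means were taken out, these were -0.27 and -0.02, while Csf1r and Csf3r, opposite over all arrays (-0.71), were at 0.50.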

How the data were processed

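Intensities were deposited by the authors as 1 value per transcript cluster and array on a linear scale, made with RMA per the submitters' processing notes; its version, the genome build and the arrays normalized together are not given in the sources used here. Per the labels, each array took 0.6 to 0.8 ng of RNA (integrity number over 7.5). Log2 was taken of 22103 clusters on 30 arrays, with no filter and no pseudocount. Symbols came from the platform annotation and coordinates from RefSeq (GRCm38.p6), with all 6 measured genes matched by gene number. A model with a mean for each of the 6 groups was fitted with limma 3.58.1 in R 4.3.3 (24 residual degrees of freedom), and p-values were adjusted by Benjamini-Hochberg over all clusters of a comparison; every adjusted p is from this fit unless a setting is named. The fit was tested on simulated data. The members, the lists and the rule for naming genes (all members, the 3 genes most correlated with each, and in each list the 4 and 3 smallest p of the comparisons described) were chosen with earlier results of these data known. Fits of the lists under other settings were added after the values were seen, as were the fits with the covariate on all arrays and without WT neutrophil 4. The number of arrays limits the precision. Figures were drawn with matplotlib 3.10.9.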

Additional observations from a re-analysis of the deposited data

Results flagged for a closer look

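Among the 30 sets of values formed by 6 genes in the 5 groups of 4 or more arrays, a test for a single array far from the rest picked out 1, and chance alone picks about 1 in 20. Csf2rb in KO neutrophil 1 was at 12.74, against 13.15 in the nearest KO neutrophil array. Without it the fall of Csf2rb in KO neutrophils was -0.57 (adjusted p = 0.0672).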

How the results depend on the processing

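Over all alternatives run, 1422 of 1464 values of single members kept their side of the threshold, 30 lost it, 12 gained it and 0 called values changed sign; those that matter stand beside the results. In KO against WT neutrophils the count of 4390 clusters became 1084 with only the compared groups in the fit, 977 without WT neutrophil 4 in that fit, 474 with the covariate of broadly expressed clusters on all arrays and 0 on neutrophil arrays only (limma; 2137 had an unadjusted p under 0.05), and 2883 to 5557 with 1 array left out. The low end came without KO neutrophil 1 (2883) or WT neutrophil 4 (2884). The 2 members passing there became 1 with quantile normalization, 1 with centring, 0 in the other 4 settings just named, and 0 to 2 with 1 array left out. Fits on only the compared groups gave 9 clusters for macrophages by genotype, 7299 (against 11402) for WT neutrophils against macrophages, and 821 (against 1280) and 631 (against 1518) for the neutrophil change minus that of microglia and of macrophages. With 1 array left out these last ranged from 724 to 2611 and 786 to 2790, macrophages by genotype from 0 to 9 and microglia by genotype from 0 to 1 (1 without KO microglia 2 and 4). Members passing in both differences of change ranged from 0 to 1, with 1 after centring for microglia. Same-numbered arrays shared little, so numbers were not taken as pairs. Deviations from group means correlated over 0.1 in 4 of 13 KO and WT pairs and 2 of 26 pairs of cell types. Since a number need not stand for a mouse, this cannot show whether cell types of a genotype came from the same animals. The replicate block gave 4340 clusters for neutrophils by genotype and 994 (against 1518) for the neutrophil minus macrophage change, and changed no member's call.

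Centring moved the median of all clusters most for WT macrophages minus microglia (-0.25 to 0.15). Higher calls went from 54% to 71.6% for neutrophils by genotype, from 40.6% to 51.6%, 25.7% to 66.5% and 57.4% to 38.7% in the WT comparisons in the order given in the report, and from 28.8% to 55%, 27.4% to 65.5% and 50.1% to 38.6% in the KO ones. For the neutrophil change minus that of microglia it went from 70.1% to 83.7%, and minus that of macrophages from 63.4% to 82.4%. Each member had a single cluster, so averaging clusters could not be run.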
